A study of Tupaia belangeri chinensis with 36 samples.

Results

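The transcripts described here are the long noncoding RNAs of the fetal Chinese tree shrew cortex that carry the name of a morphogen signalling gene. They were taken from the deposited count tables by name: a feature had to start with LINC- (a noncoding transcript between genes) or contain -AS- (an antisense transcript), and its gene symbol had to begin with WNT, FZD, BMP, FGF, NOTCH, DLL, JAG1 or JAG2, TGFB, SMAD, GLI1 to GLI3, PTCH, SHH, SPRY or RSPO. Of 76871 features in the tables, 54371 were LINC or AS features and 427 met this rule, 293 of them LINC and the others AS, under 95 gene symbols. Of these, 59 members under 12 symbols, such as PTCHD2, PTCHD4, BMPER and TGFBRAP1, fall outside the families of ligands, receptors and other pathway genes counted below. They are called outside the families, which does not mean that these genes play no part in a pathway.

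The libraries were made from untreated fetuses of *Tupaia belangeri chinensis* at embryonic day 28 (E28), 37 (E37) and 42 (E42), from layers cut out of Nissl-stained frozen sections by laser capture microdissection. The E28 set had ventricular zone (VZ), inner and outer subventricular zone (ISVZ and OSVZ), intermediate zone (IZ), cortical plate (CP) and marginal zone (MZ), with 2 libraries a layer. The E37 set had no germinal layer: the IZ gave 3 libraries, the MZ 2, the whole CP 1, and its inner part (CPi) and outer part (CPo) 2 apiece. The E42 set had the ISVZ, OSVZ, IZ, CPi, CPo and MZ with 2 libraries a layer and the VZ with 1, because the file of VZ replicate 2 held the same counts as E28 VZ replicate 2 and was left out, which left 35 libraries in 18 groups. The VZ, ISVZ and OSVZ are called germinal layers and the IZ, CP and MZ neuron-rich layers below. The labels do not say which libraries came from the same fetus or litter, so p-values measure the spread between these libraries. Where layers share a fetus, ignoring this makes the p-values of the stage comparisons too small and can make those of differences between layers too large.

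WNT, BMP, FGF, hedgehog and Notch signals pattern the early cortex and set the balance between dividing progenitors and differentiating neurons. WNT ligands bind Frizzled receptors, BMP and TGF-beta ligands act through receptor kinases and SMAD proteins, FGF ligands act through receptor tyrosine kinases held in check by Sprouty proteins, hedgehog ligands relieve the block set by PTCH1 and so act on GLI factors, and Notch receptors are triggered by DLL and JAG ligands on the neighbouring cell. Some noncoding transcripts near such genes are known to act on their neighbour and many have no known role, so a name taken from a gene says nothing about what the transcript does. The sources used here do not say how the annotation paired each noncoding transcript with its gene symbol, and coding features carry database numbers without symbols, so no transcript was set beside the gene it is named after.

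The libraries held 17932690 to 102042743 counts on features (median 31756620), of which LINC features took 0.690% to 1.16% and AS features 0.685% to 1.44%. Members took 1487 to 9254 counts per library. Reads that fell on more than 1 feature, which the counting tool leaves out, made up 15.0% to 19.1% of all reads in a table. Whether strand was used in counting is not given in the sources used here, so reads of an AS transcript and of the gene on its other strand cannot be told apart. Layer labels could be checked only on noncoding features named after marker genes. Those named after progenitor genes summed to 6.02 to 57.9 CPM (counts scaled to a common library size with edgeR's TMM factors) in the E28 germinal layers and 4.25 to 7.34 CPM in the E28 neuron-rich layers, and to 31.2 to 86.0 and 3.35 to 31.9 CPM at E42. Those named after neuronal genes summed to 1.71 to 27.8 CPM in the germinal and 16.0 to 44.0 CPM in the neuron-rich layers at E28, so the ranges of the 2 kinds of layer overlapped in each case. Features named after vessel, microglia and choroid plexus genes stayed at or below 0.660 CPM in every library.

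Most members had few or no reads. No library held a read of 180 of the 427 members, 299 had under 10 reads in all libraries together, and 6 were counted in every library. The filter on low counts left 80 members under 45 symbols (35 LINC and 45 AS), which are the members tested. The other 347 were not tested. FZD3-AS-1 alone took 65.8% of all member counts (41.4% to 84.0% of a library's), LINC-JAG2-1 took 13.6%. With PTCHD2-AS-1, FGF1-AS-1 and FGF12-AS-1 these 5 transcripts made up 85.7%. By family, the tested members were 8 of 61 named after Frizzled receptors, 8 of 50 after WNT ligands, 4 of 12 after R-spondins, 6 of 33 after BMP ligands, and 6 of 18 after BMP receptors. Others were 6 of 42 after FGF ligands, 8 of 37 after FGF receptors, 2 of 22 after Sprouty genes, 1 of 15 after Notch ligands, 6 of 28 after hedgehog genes, 7 of 20 after SMAD genes, 2 of 14 after TGF-beta ligands and 16 of the 59 outside the families. None of the 5 members named after Notch receptors and none of the 11 named after TGF-beta receptors had enough reads.

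Each comparison was read from 1 quasi-likelihood model (edgeR) of all 26858 features that passed the filter, 10836 of them LINC or AS, with a Benjamini-Hochberg adjusted p under 0.05 over all of them as the threshold. For a difference among any of the 18 groups, 22 of 80 members (27.5%) passed, against 51.2% of all features and 20.9% of LINC and AS features. Between germinal and neuron-rich layers, 17 members passed at E28 (10 higher and 7 lower in germinal layers, 21.2% in all, against 35.7% of all features, of which 18.5% higher and 17.1% lower, and 16.6% of LINC and AS features) and 15 at E42 (10 higher and 5 lower, 18.8% in all, against 30.1%, of which 15.6% higher and 14.4% lower, and 12%). A change of that difference between the stages was called for 4 members, 3 upward and 1 downward (5%, against 15%, of which 6.67% upward and 8.3% downward, and 4.85%). From E28 to E42, 2 members rose in the ISVZ and OSVZ and none fell (2.5%, against 22.2%, of which 12.5% up and 9.64% down, and 8.11%). In neuron-rich layers 8 passed from E28 to E37, 3 up and 5 down (10%, against 22.4%, of which 12% up and 10.4% down, and 11.4%). With the replicate number as a random block 3 passed from E28 to E37, against 15.3% of all features in that fit. From E37 to E42, 3 rose and none fell there (3.75%, against 15.6%, of which 10.3% up and 5.3% down, and 6.61%). In the MZ, 7 were higher than in the CP and none was lower (8.75%, against 29.3%, of which 15% higher and 14.3% lower, and 9.2%).

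The shares of members called thus lay below those of all features in every comparison. They lay above those of LINC and AS features for the differences among groups, between the kinds of layer and in their change, and below them for the steps over time and for the MZ. The differences from these shares were not tested. The median log2 difference between germinal and neuron-rich layers over the 80 members was 0 at E28 (all features -0.05, LINC and AS features -0.3) and 0.22 at E42 (0.07 and 0.2). Over time it was 0.79 in the ISVZ and OSVZ (0.24 and 0.73), -0.24 from E28 to E37 (0 and -0.26) and 0.8 from E37 to E42 (0.18 and 0.51), and between MZ and CP it was 0.49 (0.05 and 0.14). In all, 34 members passed in at least 1 of the directional comparisons, 5 of them outside the families. A mean of layers on the log scale is not defined where a layer has no read, and this left 21 members at E28, 14 at E42, 35 for the change, 16 for the ISVZ and OSVZ over time, 33 from E28 to E37, 29 from E37 to E42 and 32 for the MZ with an unadjusted p above 0.99. For those an absent call is no evidence, and the counts of 0 in 1 direction are to be read with this. Leaving out a library can also leave a layer without reads, and a call lost in that way below is no evidence against the difference. Calls also included a layer without reads, in 10 of 17 at E28, 7 of 15 at E42 and 2 of 4 for the change. The same held for 1 of 2 in the ISVZ and OSVZ, 5 of 8 from E28 to E37 and 2 of 3 from E37 to E42. In the MZ it held for 5 of 7, and the fold changes of all these depend on a small added count.

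**Figure D1:**
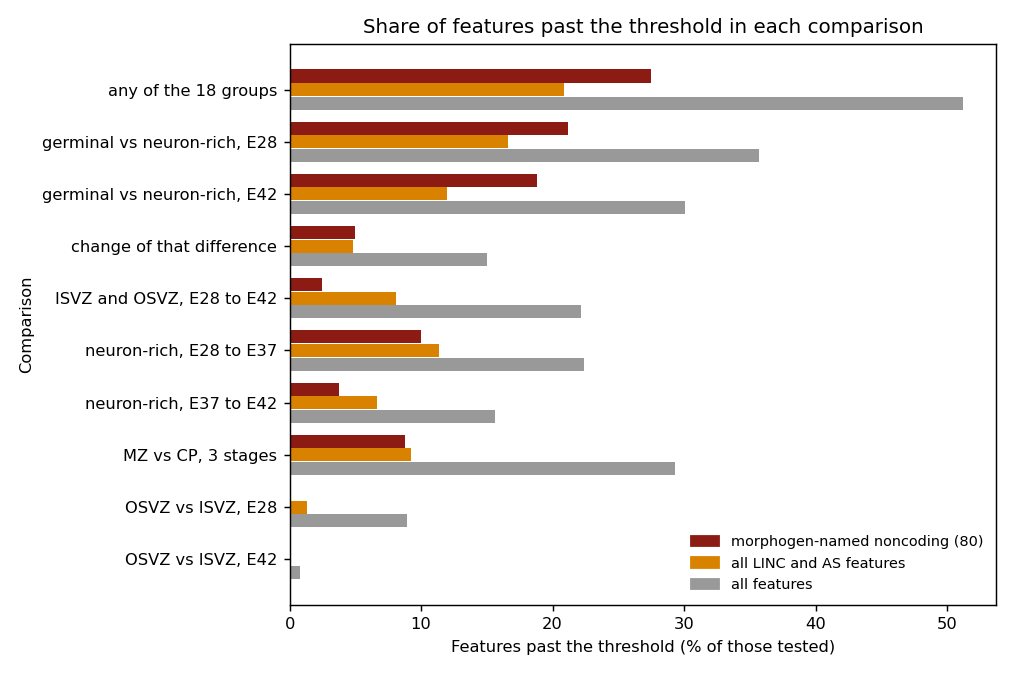
Bars give the percentage of tested features past the threshold (adjusted p under 0.05, edgeR) in each comparison, for the 80 noncoding transcripts named after morphogen genes (dark red), all LINC and AS features (orange) and all features (grey). Between germinal and neuron-rich layers at E28 the 3 shares were 21.2%, 16.6% and 35.7%, and for OSVZ against ISVZ no morphogen-named transcript passed at E28 or E42.

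Transcripts named after Frizzled receptors, the membrane receptors of WNT ligands, were higher in E28 germinal layers in 4 of 8 tested cases and lower in none (18.5% of all features were higher and 17.1% lower). LINC-FZD8-1, LINC-FZD8-2 and LINC-FZD8-3, the 3 tested of 20 transcripts named after FZD8, were highest in the VZ. In bulk tissue fewer cells of a type and less RNA per cell cannot be told apart. In the 2 E28 VZ libraries LINC-FZD8-1 had 3.16 and 2.45 CPM, LINC-FZD8-2 2.36 and 2.30 CPM, and LINC-FZD8-3 2.46 and 3.24 CPM. The ISVZ libraries were lower, at 1.05 and 2.04, 0.397 and 1.71, and 0.829 and 1.61 CPM for the same transcripts in the same order. The OSVZ libraries were at 1.16 and 0.579, 0.743 and 0.405, and 0.578 and 0.174 CPM. In means the level thus fell from VZ through ISVZ to OSVZ for all 3, although the ISVZ and OSVZ values of LINC-FZD8-1 and LINC-FZD8-2 overlapped and OSVZ against ISVZ passed for none of them.

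In the E28 neuron-rich layers LINC-FZD8-2 ranged from 0.035 to 0.265 CPM, below all 6 germinal libraries (0.397 to 2.36 CPM), and its log2 difference was 2.99 ± 0.68 (SE, adjusted p = 0.000689 by edgeR). LINC-FZD8-1 was at 0 to 1.01 CPM there against 0.579 to 3.16 CPM, with 1 neuron-rich library, MZ replicate 2, inside the germinal range (log2 difference 2.55 ± 0.79, adjusted p = 0.0127 by edgeR). LINC-FZD8-3 was at 0.027 to 0.380 CPM against 0.174 to 3.24 CPM, with OSVZ replicate 2 inside the neuron-rich range (2.49 ± 0.63, adjusted p = 0.00211 by edgeR). These 3 calls held without any single library and under every alternative tried. At E42 the single VZ library was again the highest, at 2.87, 2.87 and 2.40 CPM. The ISVZ and OSVZ libraries held 0.672 to 1.08, 0.425 to 0.695 and 0.681 to 1.08 CPM, and the MZ libraries 0.880 and 0.338, 0.785 and 0.627, and 1.12 and 0.869 CPM. MZ replicate 2 of LINC-FZD8-1 was below the SVZ range and the other MZ values were within or above it. At E37, where the set had no germinal layer, MZ replicate 3 had 28 reads of LINC-FZD8-1. CPi replicate 3 of E37 had 16 reads of LINC-FZD8-2. These were more reads than E28 OSVZ replicate 2 had, at 20 and 14.

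The E42 difference was 1.75 ± 0.62 for LINC-FZD8-2 (adjusted p = 0.0318 by edgeR) and 1.67 ± 0.58 for LINC-FZD8-3 (adjusted p = 0.0278), while LINC-FZD8-1 at 1.59 ± 0.74 missed the threshold (adjusted p = 0.113). Both E42 calls rested on the VZ library: without it LINC-FZD8-2 had 0.89 (adjusted p = 0.362) and LINC-FZD8-3 1.12 (adjusted p = 0.186). They were also lost without 7 and 4 other E42 libraries, among them ISVZ replicate 1 (adjusted p = 0.0559 and 0.051), IZ replicate 2 (adjusted p = 0.0921 and 0.0891) and MZ replicate 2 (adjusted p = 0.0757 and 0.0704), with layers pooled into 1 group, an alternative added after the data were seen (0.0766 and 0.11), and with library sizes from LINC and AS features (0.0808 and 0.0769). Over the 35 libraries the log2 CPM of the FZD8 pairs correlated at r = 0.69 to 0.73, against a median of 0.26 over all 52 pairs of members that share a symbol and 0.02 over 3108 pairs that do not, whose values ran from -0.82 to 0.88 and so included higher ones. That is a description of libraries that share layers and depth.

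**Figure D2:**
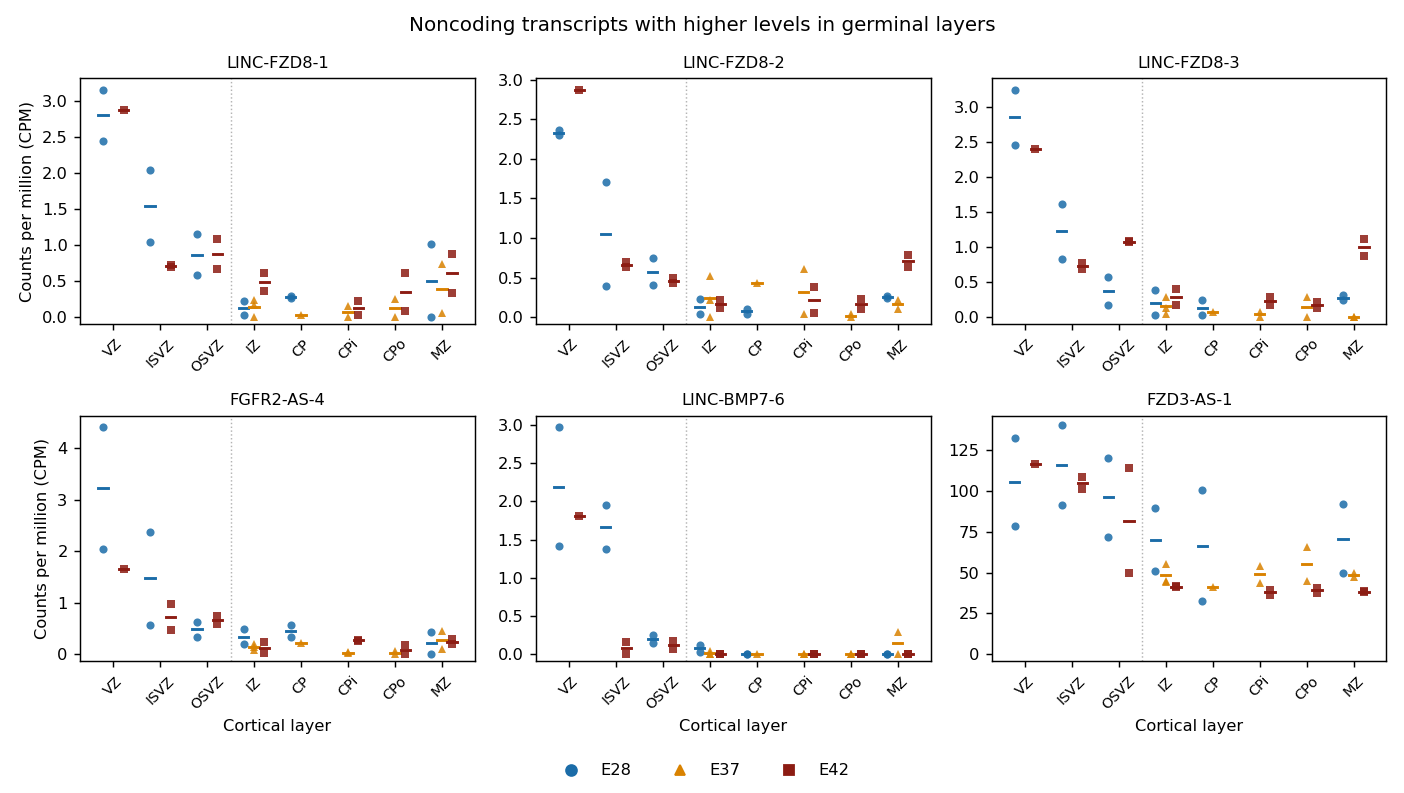
Each point is a library, in CPM (linear axis), by layer from VZ to MZ, for E28 (blue circles), E37 (orange triangles) and E42 (red squares), with a short line at the group mean and a dotted line between germinal and neuron-rich layers. The 3 FZD8-named transcripts are highest in the VZ (2.30 to 3.24 CPM at E28), LINC-BMP7-6 is at 0 in all 8 E42 neuron-rich libraries, and FZD3-AS-1 spans 32.5 to 140 CPM at E28.

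FZD3-AS-1, named after the Frizzled receptor that guides axon tracts, had the most reads of all members. In E42 it was at 116 CPM in the VZ, 101 and 108 CPM in the ISVZ and 114 and 49.5 CPM in the OSVZ, against 36.5 to 41.5 CPM in the 8 neuron-rich libraries. The 2 kinds of layer did not overlap, although OSVZ replicate 2 stood near the neuron-rich libraries, and the log2 difference was 1.34 ± 0.26 (adjusted p = 0.00041 by edgeR). At E28 the germinal layers ranged from 71.8 to 140 CPM and the neuron-rich layers from 32.5 to 101 CPM, which overlapped (0.61 ± 0.26, adjusted p = 0.0723 by edgeR). Replicate 2 was higher than replicate 1 in 6 of 6 E28 layers, by 1.54 to 3.09 times. With the replicate number as a block the E28 difference was 0.67 ± 0.14 and passed (adjusted p = 6e-04 by edgeR). In E37 neuron-rich layers its level was 41.4 to 65.6 CPM, and neither step over time passed there.

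The other Frizzled-named calls had few reads. FZD2-AS-1 had 0 to 0.420 CPM in the E28 germinal libraries, at 0 in ISVZ replicate 1, and reads in 1 neuron-rich library, CP replicate 2 (0.108 CPM). It passed at E28 (adjusted p = 0.0175 by edgeR), but not with DESeq2 (adjusted p = 0.13). Without ISVZ replicate 2 the adjusted p was 1, since the ISVZ then had no read. LINC-FZD8-3 also differed over time in neuron-rich layers: it was at 0.027 to 0.380 CPM at E28, at 0 to 0.292 CPM at E37 and at 0.129 to 1.12 CPM at E42, lowest at E37 although the ranges overlapped. Both E37 MZ libraries had no read of it, so the fitted folds depend on a small added count. The fall to E37 (adjusted p = 0.0378 by edgeR) was lost without any of 8 libraries with layers pooled into 1 group (adjusted p = 0.291) and with the random replicate block (0.246). The later rise (adjusted p = 0.00232) passed with layers pooled (2.2, adjusted p = 0.0418) and without each library in turn.

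Members named after WNT ligands and R-spondins, the secreted activators of the pathway and their enhancers, had few reads and few calls. WNT7B-AS-2, named after a ligand of cortical neurons, had 0 to 0.451 CPM in the E28 neuron-rich libraries and reads in 1 germinal library, OSVZ replicate 1 (0.028 CPM, 1 read). It passed at E28 (adjusted p = 0.0143 by edgeR), but not without CP replicate 1 or MZ replicate 1 (adjusted p = 1 for both). WNT5B-AS-1 passed at E42 (adjusted p = 0.0475). It had 0.889 CPM in the VZ, 0.240 and 0 in the ISVZ, 0.039 and 0 in the OSVZ and at most 0.057 CPM in neuron-rich layers. The call was lost without any of 21 libraries. LINC-RSPO3-1 had no read in any of the 11 germinal libraries of both stages. In the E28 neuron-rich libraries it had 0 to 0.820 CPM (37 reads), which put the neuron-rich level at least 14.2-fold higher with a floor of 3 reads over the germinal libraries (adjusted p = 0.00615 by edgeR), or 7.55-fold without CP replicate 1, which held 20 of the reads. This call was lost without IZ replicate 1 or MZ replicate 2 (adjusted p = 1 for both), when that layer had no read left. Those fits could therefore not test the difference, and the bounds were then 13.9- and 14.5-fold. At E42 it had 25 reads in neuron-rich layers and did not pass. The most read members of these 2 families, LINC-WNT4-2 (0 to 0.735 CPM over the 35 libraries) and RSPO3-AS-1 (0 to 0.656 CPM), passed in no comparison.

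Members named after BMP ligands, secreted factors of the dorsal midline and meninges, included LINC-BMP7-6, which lay mostly in germinal layers. LINC-BMP7-6 had 2.97 and 1.41 CPM in the E28 VZ, 1.95 and 1.37 CPM in the ISVZ and 0.248 and 0.145 CPM in the OSVZ. In the neuron-rich layers it had 0.129 and 0.035 CPM in the IZ, 4 and 1 reads, and no read in the CP and MZ, so every germinal library was above every neuron-rich one. The fitted log2 difference was 6.45 with layers averaged and 5.42 with layers pooled (adjusted p = 7.89e-05 and 0.00187 by edgeR). At E42 it had 1.81 CPM in the VZ, 0.168 and 0 CPM in the ISVZ and 0.077 and 0.174 CPM in the OSVZ, and no read in the 8 neuron-rich libraries. The germinal level was thus at least 50.8-fold higher with a floor of 3 reads over the neuron-rich libraries (adjusted p = 0.000123 by edgeR), although 61 of the 77 reads lay in the VZ library and without it the bound was 12.7-fold. ISVZ replicate 2 was also at 0, and without ISVZ replicate 1 the adjusted p was 1, since the ISVZ then had no read. At E37 LINC-BMP7-6 had 12 reads in neuron-rich libraries, 11 of them in MZ replicate 3. The E28 OSVZ libraries had 9 and 5 reads.

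LINC-BMP8A-1 ran the other way at E28, with 0 to 0.261 CPM in germinal and 0.041 to 1.24 CPM in neuron-rich libraries. The ranges overlapped through CP replicate 1 and IZ replicate 1. The log2 difference of -2.69 ± 0.87 passed (adjusted p = 0.0158 by edgeR), but not without CP replicate 2 (-1.39, adjusted p = 0.368) or VZ replicate 1 (adjusted p = 0.0506). In E37 neuron-rich libraries it was at 0 to 0.343 CPM, lower than at E28 (adjusted p = 0.00678 by edgeR, with no read in the MZ; 0.18 without E28 CP replicate 2). LINC-BMP7-3 had 26 reads in the MZ, 21 of them in E37 replicate 3, and none in the 11 CP libraries. It passed in the MZ (adjusted p = 0.042 by edgeR), but not without any of 11 libraries. Among them were E37 MZ replicate 3 and E28 MZ replicate 2 (adjusted p = 1 for both), without which the MZ of that stage had no read. With the replicate number as a fixed block the log2 difference was 4.2 with no SE (adjusted p = 1), so that fit could not test it.

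The receptor kinases of BMP signalling gave their names to 6 tested members, and each of the 3 called was named after BMPR1B, a type I receptor. BMPR1B-AS-2 rose in the ISVZ and OSVZ, from 0.072 and 0.335 CPM in the ISVZ and 0 in both OSVZ libraries at E28 to 0.599 and 0.197 CPM and 0.541 and 0.523 CPM at E42. The 2 stages overlapped through 1 ISVZ library, and the call (adjusted p = 0.0377 by edgeR) was lost without any of 6 libraries: the 4 E28 and E42 OSVZ libraries (adjusted p = 0.0572 to 0.125) and replicate 1 of the ISVZ at each stage (adjusted p = 0.112 and 0.109). LINC-BMPR1B-2 rose in neuron-rich layers from E37 (0 to 0.357 CPM) to E42, where the reads lay in the CPo (1.17 and 1.49 CPM) and CPi (0.238 and 0.602 CPM) and the IZ and MZ had at most 0.145 CPM (adjusted p = 0.0454 by edgeR). That call was lost without any of 18 libraries and with layers pooled (adjusted p = 0.0833).

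BMPR1B-AS-1 had 9 reads in the E28 germinal libraries and none in the neuron-rich ones, at least 2.61-fold (adjusted p = 0.0461 by edgeR, 0.0712 with the fixed and 0.0849 with the random replicate block). Without any of 20 libraries it no longer passed, among them OSVZ replicate 1 and ISVZ replicate 2 (adjusted p = 1 for both), without which that layer had no read. BMPR1A-AS-7, the receptor-named member with the most reads (0 to 0.933 CPM), passed in no comparison. SMAD proteins carry the receptor signal to the nucleus, and SMAD4-AS-3, named after the shared SMAD, had 0.394 to 1.06 CPM in E28 neuron-rich libraries and 0.026 to 0.633 CPM at E37. It fell by 1.69 ± 0.53 on the log2 scale (adjusted p = 0.0198 by edgeR) with overlapping ranges, and not without E37 MZ replicate 3 (adjusted p = 0.0966) or E28 CP replicate 2 (0.0509), nor with layers pooled (0.103). LINC-SMAD5-1 rose from 0 to 0.250 CPM at E37 to 0.024 to 0.724 CPM at E42 (adjusted p = 0.0389 by edgeR). The call was lost without any of 9 libraries and with layers pooled (0.282). It had its highest values in the E42 VZ (1.01 CPM) and OSVZ replicate 1 (0.928 CPM).

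FGF ligands, growth factors of progenitors and, in the case of FGF12, a relative that acts inside neurons, gave names to 6 tested members. FGF1-AS-1 rose in neuron-rich layers between E28 and E37. In the E28 neuron-rich libraries it had 0 and 0.352 CPM in the CP, 0.483 and 0.242 CPM in the IZ and 0.667 and 0.265 CPM in the MZ. At E37 it ranged from 1.76 to 6.90 CPM (median 4.36) over 10 libraries, and at E42 from 1.84 to 4.99 CPM (median 2.56) over 8. Every neuron-rich E37 and E42 library was above every E28 one. The rise to E37 was 3.48 ± 0.44 on the log2 scale (adjusted p = 1.41e-06 by edgeR) and held without each library and under every alternative, whereas from E37 to E42 the difference was -0.45 ± 0.35 (adjusted p = 0.43).

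In germinal layers FGF1-AS-1 had 0.058 to 0.853 CPM at E28 and 0.695 to 1.69 CPM at E42. At E42 all 5 germinal libraries were below all 8 neuron-rich ones (log2 difference -1.17 ± 0.44, adjusted p = 0.043 by edgeR), a call lost without any of 9 E42 libraries (adjusted p = 0.0647 to 0.104) and with layers pooled (0.0628). At E28 the difference was 0.61 ± 0.47 in the other direction and did not pass (adjusted p = 0.356). FGF10-AS-1 had 2 reads in all E28 libraries together, 0 to 0.341 CPM in E37 neuron-rich libraries and 0.026 to 0.837 CPM at E42, against reads in 1 of 5 E42 germinal libraries, ISVZ replicate 2 (0.143 CPM). It passed at E42 (adjusted p = 0.0252) and from E28 to E37 (adjusted p = 0.0491, both by edgeR), and these calls were lost without any of 4 and of 19 libraries, among them IZ replicate 2 of E42 (0.0507) and of E37 (0.173). The rise to E37 was also lost with the random replicate block (0.129).

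FGF receptors are tyrosine kinases of radial glia and other cells, and 3 of the 8 tested members named after them passed between layers at E28 and at E42, near the shares of all features (35.7% and 30.1%). FGFR2-AS-4 had 2.04 and 4.40 CPM in the E28 VZ, 0.577 and 2.38 CPM in the ISVZ, 0.330 and 0.637 CPM in the OSVZ and 0 to 0.568 CPM in neuron-rich libraries. Only OSVZ replicate 1 lay inside the neuron-rich range, and the difference was 2.05 ± 0.66 (adjusted p = 0.0152 by edgeR), lost without ISVZ replicate 2 (1.6, adjusted p = 0.078) or IZ replicate 1 (0.0521). At E42 the germinal libraries had 0.466 to 1.66 CPM, VZ highest, and the neuron-rich ones 0 to 0.297 CPM. These did not overlap (2.39 ± 0.66, adjusted p = 0.00581 by edgeR). FGFR2-AS-5 had few reads but all of them in germinal layers, 31 at E28 and 15 at E42, and none in any of the 24 neuron-rich libraries, at least 9- and 9.89-fold with a floor of 3 reads over the neuron-rich libraries (adjusted p = 0.0108 and 0.0309 by edgeR). The E42 call was lost without any of 5 libraries, among them MZ replicate 1 (0.0798), and the E42 bound was 5.52-fold without ISVZ replicate 2.

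LINC-FGFR4-1 changed sides between the stages. At E28 it had 0.351 and 0.594 CPM in the VZ, 0.829 and 0.700 CPM in the ISVZ and 0.633 and 0.984 CPM in the OSVZ, all below the neuron-rich libraries, which ranged from 1.00 to 4.45 CPM with MZ replicate 2 highest. At E42 it had 1.19 CPM in the VZ, 1.61 and 1.11 CPM in the ISVZ and 1.70 and 1.29 CPM in the OSVZ, all above the neuron-rich libraries at 0.313 to 0.985 CPM. The log2 differences were -1.42 ± 0.40 and 1.18 ± 0.40 (adjusted p = 0.00512 and 0.0245 by edgeR) and the change between them was 2.59 ± 0.56 (adjusted p = 0.00156). In neuron-rich layers it fell by 1.31 ± 0.36 on the log2 scale from E28 to E37 (adjusted p = 0.00858). Without E28 MZ replicate 2 the E28 difference was -0.94 (adjusted p = 0.0566) and the fall 0.83 (-0.83, adjusted p = 0.0998). The fall was also lost with the replicate number as a random block (-1.16, adjusted p = 0.0619 by limma voom). The E42 difference was lost without ISVZ replicate 1 (0.0652), OSVZ replicate 1 (0.0558), IZ replicate 2 (0.0707) or MZ replicate 2 (0.0675), and with library sizes taken from LINC and AS features only (0.83, adjusted p = 0.142) or with no filter (0.0993).

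**Figure D3:**
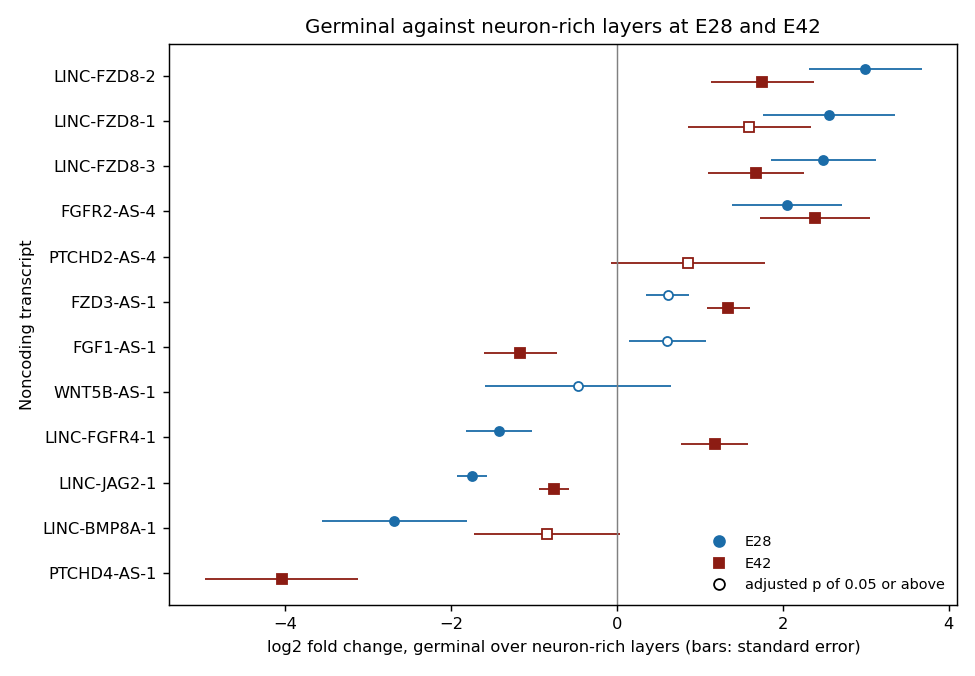
Points give the log2 fold change between germinal and neuron-rich layers (right is higher in germinal layers) with its standard error, for E28 (blue circles) and E42 (red squares), for the 12 transcripts called at either stage that had reads in every layer averaged at the stage drawn. Open symbols had an adjusted p of 0.05 or above. LINC-FGFR4-1 lies at -1.42 at E28 and 1.18 at E42, and LINC-JAG2-1 at -1.75 and -0.76.

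Sprouty proteins inhibit FGF signalling. SPRY2-AS-3, at 0 to 2.34 CPM with the highest level in the E42 VZ, passed in no comparison. The other tested Sprouty-named member, SPRY2-AS-2, is given with the MZ below.

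JAG2 is a membrane-bound Notch ligand, and LINC-JAG2-1 was the only tested member of the Notch families and the second most read of all members. At E28 it had 3.54 and 4.77 CPM in the VZ, 3.89 and 5.88 CPM in the ISVZ and 5.97 and 7.58 CPM in the OSVZ. In neuron-rich layers it had 12.7 and 12.4 CPM in the IZ, 16.4 and 16.5 CPM in the CP and 15.8 and 34.7 CPM in the MZ. Every neuron-rich library was above every germinal one, by -1.75 ± 0.18 on the log2 scale as germinal over neuron-rich (adjusted p = 2.73e-09 by edgeR), and this call held without each library and under every alternative. At E42 it had 6.46 CPM in the VZ, 7.36 and 9.98 CPM in the ISVZ, 12.8 and 11.7 CPM in the OSVZ and 11.9 to 19.9 CPM in neuron-rich layers, so OSVZ replicate 1 was above the lowest CPi library, and the difference was -0.76 ± 0.19 (adjusted p = 0.00192).

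The ISVZ and OSVZ level of LINC-JAG2-1 rose from 3.89 to 7.58 CPM at E28 to 7.36 to 12.8 CPM at E42, by 0.84 ± 0.22 on the log2 scale (adjusted p = 0.00482 by edgeR), and the change of the layer difference was 0.99 ± 0.25 (adjusted p = 0.00656). Both were lost with library sizes taken from LINC and AS features (0.41, adjusted p = 0.233, and 0.29, adjusted p = 0.566), a scaling that moved the median of all features from 0.24 to -0.15 and from 0.04 to -0.64. In E37 neuron-rich layers its level was 12.5 to 25.6 CPM, and no step over time passed there. Of the features named after interneuron and oligodendrocyte genes, 9 of 16 rose and none fell in the ISVZ and OSVZ between these stages (median log2 change 2.29). Of all features 12.5% rose and 9.64% fell. Of progenitor-named features 3 of 25 rose and 0 fell, of neuron-named ones 1 of 20 rose and 1 fell, and 0 of 11 marginal zone ones rose or fell. The change of the layer difference was called upward for 5 and downward for 1 of the interneuron and oligodendrocyte features, against 6.67% and 8.3% of all features. Sums of these features were 0.574 to 14.8 CPM in the E28 and 6.04 to 48.4 CPM in the E42 germinal layers. They were called in the same comparisons as LINC-JAG2-1, BMPR1B-AS-2 and LINC-FGFR4-1, and their part in those results was not tested.

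**Figure D4:**
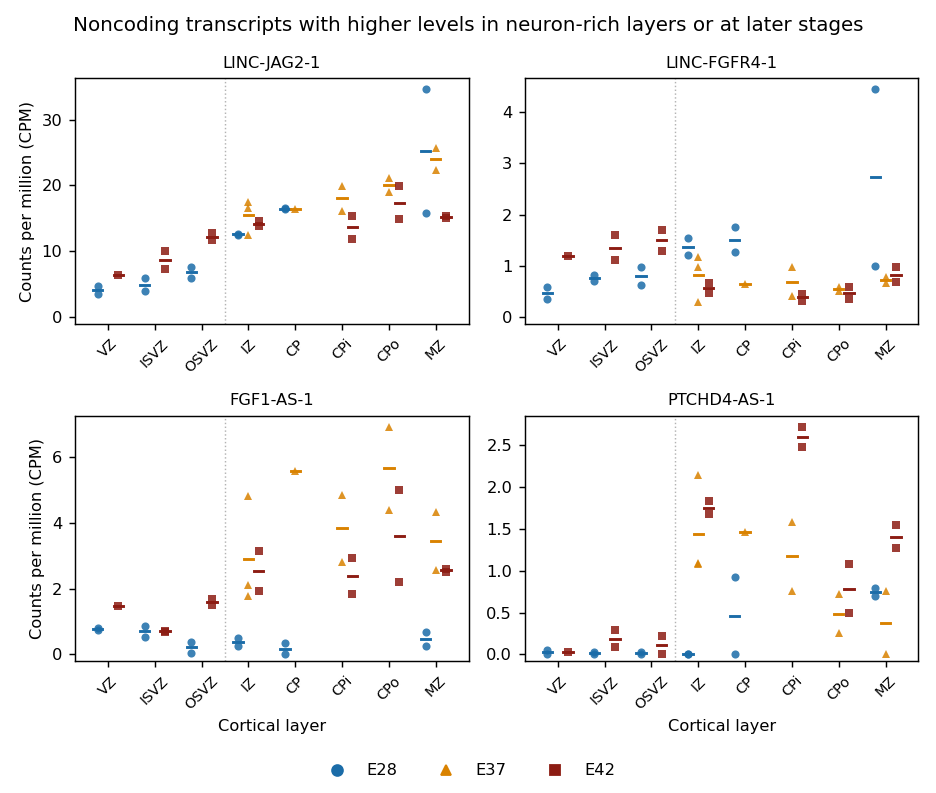
Each point is a library, in CPM (linear axis), by layer and stage, with symbols, group means and dotted line as in the plot of germinal transcripts. LINC-JAG2-1 is below 8 CPM in all E28 germinal libraries and above 12 CPM in all E28 neuron-rich ones, LINC-FGFR4-1 is higher in neuron-rich layers at E28 and in germinal layers at E42, and FGF1-AS-1 is at most 0.667 CPM in E28 neuron-rich layers and at least 1.76 CPM in E37 ones.

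GLI3 is the main hedgehog repressor of the dorsal cortex, and 2 of 4 tested transcripts named after it were higher in germinal layers at both stages, where 18.5% and 15.6% of all features were. LINC-GLI3-4 had 63 reads in the E28 germinal libraries (0.058 to 0.693 CPM, a read in all 6) and none in the neuron-rich ones, at least 18.3-fold with a floor of 3 reads (adjusted p = 0.0019 by edgeR, 0.0995 with DESeq2). At E42 it had 0.178 CPM in the VZ, 0 and 0.036 CPM in the ISVZ, 0 and 0.199 CPM in the OSVZ and 2 reads in neuron-rich libraries, a call (adjusted p = 0.0385) lost without any of 10 libraries. LINC-GLI3-5 had 1.02 and 0.519 CPM in the E28 VZ, 0.715 and 0.174 CPM in the OSVZ and 0.072 and 0.061 CPM in the ISVZ, and no read in the CP and MZ. IZ replicate 1 had 0.387 CPM, above 3 of the 6 germinal libraries. The difference passed at E28 (adjusted p = 0.00771 by edgeR), but not with layers pooled (0.0966) or with DESeq2 (0.0625). At E42 it had 0.050 to 0.237 CPM in germinal libraries and reads in 1 of 8 neuron-rich libraries, MZ replicate 1 (0.057 CPM, adjusted p = 0.00447 by edgeR). The log2 CPM of the 6 pairs of GLI3-named transcripts correlated at r = 0.32 to 0.65 over the 35 libraries.

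The MZ, the cell-poor outermost layer with Cajal-Retzius cells next to the meninges, was higher than the CP for 7 of the 80 tested members (8.75%), near the 9.2% of LINC and AS features called in either direction and below the 15% of all features that were higher. FGF12-AS-1 had 4.37 and 0.838 CPM in the E28 MZ, 4.56 and 1.75 CPM at E37 and 3.28 and 6.18 CPM at E42, against 0.108 to 1.28 CPM in the 11 CP libraries. Only E28 MZ replicate 2 lay inside the CP range, and the difference was 2.80 ± 0.44 on the log2 scale (adjusted p = 8.16e-06 by edgeR). Its E42 ISVZ libraries were as high, at 3.76 and 5.93 CPM. TGFB1-AS-1, named after a TGF-beta ligand, had 0.105 to 0.338 CPM in the 6 MZ libraries and 0 to 0.107 CPM in the CP libraries, overlapping at the E37 CP library (log2 difference 3.90 ± 0.91, with CP groups at 0 so that its size depends on the added count, adjusted p = 0.00136 by edgeR). Its highest value was 0.681 CPM in the E42 VZ. The other tested TGF-beta member, TGFB1-AS-3 (0 to 0.908 CPM), passed in no comparison.

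WNT16-AS-1 had 0.182 to 0.943 CPM in the MZ libraries, all above the CP libraries at 0 to 0.108 CPM, and no read in the 5 germinal libraries of E42. It passed (adjusted p = 0.00788 by edgeR), but not with DESeq2 (0.0506). With the fixed replicate block the log2 difference was 3.62, against 3.4 without it, but its SE was 8923.79 (adjusted p = 1). That fit could therefore not test the difference. LINC-PTCH1-1, named after the hedgehog receptor, had 0 to 0.750 CPM in the MZ and 0 to 0.179 CPM in the CP (adjusted p = 0.00296 by edgeR). Without E28 MZ replicate 2 the adjusted p was 1, since the E28 MZ then had no read of it. SPRY2-AS-2 had 0 to 0.483 CPM in the MZ and 0 to 0.114 CPM in the CP (adjusted p = 0.00699), with adjusted p = 1 without E28 MZ replicate 2 or E37 MZ replicate 3. Features named after marginal zone and meninges genes summed to 17.4 to 133 CPM in the MZ and 5.33 to 10.5 CPM in the CP, those named after interneuron and oligodendrocyte genes to 9.51 to 21.6 and 0.750 to 7.67 CPM, and those named after progenitor genes, of which 6 of 25 were higher and none lower, to 4.68 to 31.9 and 3.35 to 6.86 CPM. Their part in these results was not tested.

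**Figure D5:**
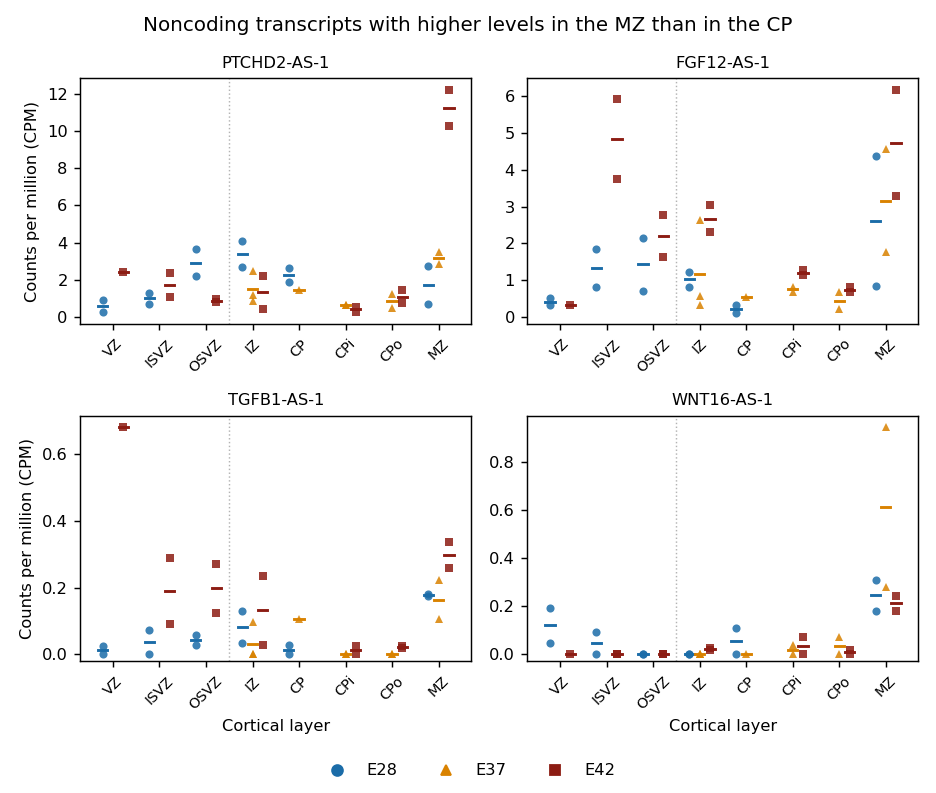
Each point is a library, in CPM (linear axis), by layer and stage, with symbols, group means and dotted line as in the plot of germinal transcripts. PTCHD2-AS-1 reaches 10.3 and 12.2 CPM in the E42 MZ, the 6 MZ libraries of WNT16-AS-1 all lie above its CP libraries, and FGF12-AS-1 is as high in the E42 ISVZ as in the MZ.

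Some members lay outside the families, and the third most read member, PTCHD2-AS-1, was one of them. It had 10.3 and 12.2 CPM in the E42 MZ, 3.50 and 2.86 CPM in the E37 MZ and 0.728 and 2.73 CPM in the E28 MZ. The CP libraries had 0.286 to 2.62 CPM, so E28 MZ replicate 1 lay inside the CP range and the other MZ libraries above it (1.85 ± 0.36 over the 3 stages, adjusted p = 0.000179 by edgeR). With the replicate block it was also lower in E28 germinal than neuron-rich layers (-1.02 ± 0.36, adjusted p = 0.0248, against 0.0727 without). PTCHD4-AS-1 had 0 to 0.288 CPM in the E42 germinal libraries and 0.489 to 2.72 CPM in the neuron-rich ones, with CPi highest and no overlap (-4.05 ± 0.92, adjusted p = 0.0011 by edgeR).

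At E28, PTCHD4-AS-1 was at 0 to 0.049 CPM in germinal layers and at 0 to 0.920 CPM in neuron-rich ones, with no read in the IZ, which leaves that difference undefined. Its rise to E37 (0 to 2.14 CPM, adjusted p = 0.0231 by edgeR) averages the same E28 IZ, so the size of the rise is undefined as well. The rise was not called with layers pooled (adjusted p = 0.245), with the random replicate block (0.0676) nor without either E28 IZ library (0.0722 and 0.0713) or E37 MZ replicate 3 (adjusted p = 1). Without that MZ library the E37 MZ had no read left. LINC-BMPER-18 had no read in any germinal library of either stage and 26 and 51 reads in the neuron-rich libraries of E28 and E42, at least 9.95- and 8.59-fold higher with a floor of 3 reads over the germinal libraries (adjusted p = 0.00437 and 0.0169 by edgeR). These calls were lost without E28 MZ replicate 1 or IZ replicate 2, and without E42 CPo replicate 1, when a layer had no read left (adjusted p = 1 for each), and the E28 bound was 6.22-fold without CP replicate 1. PTCHD2-AS-4 was lower in E28 germinal layers, with reads in OSVZ replicate 2 only (adjusted p = 0.0221, 0.156 with layers pooled and 0.0783 with the random replicate block). The call was lost without any of 5 libraries, among them IZ replicate 1 (adjusted p = 1), without which the IZ had no read. BMP1-AS-1 fell from E28 to E37 (adjusted p = 0.0305 by edgeR, lost without any of 5 libraries, among them E28 CP replicate 1 with adjusted p = 1, and with the random replicate block, 0.196).

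Between the OSVZ and ISVZ no member passed at E28 or E42 by edgeR, with or without the fixed replicate block, or by DESeq2. With the random replicate block (limma voom) 4 passed at E28 and 3 at E42, and with only these groups in the edgeR fit 1 passed at E28. At E28 the 4 were LINC-BMP7-6 (-3.01 as OSVZ over ISVZ, adjusted p = 0.0157 by limma, 0.202 by edgeR), LINC-SMAD5-1 (-3.64, 0.0283 and 0.118), WNT4-AS-1 (4.15, 0.0172 and 0.125) and LINC-FGF12-3 (3.68, 0.00523 and 0.213). LINC-SMAD5-1 had 0.577 and 0.457 CPM in the E28 ISVZ and 0.028 and 0.029 CPM in the OSVZ. WNT4-AS-1 had 0.036 and 0 CPM in the ISVZ and was above both in each OSVZ library, at up to 1.13 CPM. For these, as for LINC-BMP7-6 above, the 2 layers did not overlap. These members, and LINC-FGF12-3, LINC-PTCHD2-4 and WNT7A-AS-1 that passed so at E42, were chosen after their values were seen. An unadjusted p under 0.05 was reached by 6 members at E28 and 2 at E42 by edgeR, and by 5 and 0 with DESeq2. In the main edgeR fit 8.94% of all features passed the adjusted threshold at E28 and 0.774% at E42 (1.31% and 0.111% of LINC and AS features). With 2 libraries a layer, a missed threshold does not show that the members were at equal levels in the 2 layers.

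Noncoding transcripts named after other genes of the same pathways, 550 features of 5 lists of which 113 were tested, were counted in the same fits. At E28, 16 were higher and 4 lower in germinal layers, and at E42 15 and 4. From E28 to E42, 9 rose and none fell in the ISVZ and OSVZ, and in neuron-rich layers 4 rose and 2 fell to E37 and 7 rose and 1 fell to E42. In the MZ 5 were higher than in the CP and none was lower. Of all features, 35.7% passed between layers at E28, 30.1% at E42, 22.2% in the ISVZ and OSVZ, 22.4% to E37, 15.6% to E42 and 29.3% in the MZ, and of LINC and AS features 16.6%, 12%, 8.11%, 11.4%, 6.61% and 9.2%. By list, the BMP and TGF-beta features held 6 higher and 2 lower of 31 tested at both E28 and E42. The WNT features held 4 higher and 1 lower of 24 at E28 and 4 and 0 at E42, and the hedgehog features 3 and 0 of 14 and 2 and 0. The FGF features held 2 and 0 of 15 and 1 and 1, and the Notch features 1 and 1 of 29 and 2 and 1.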

How the data were processed

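Per the labels and the methods of the study, layers were collected by laser capture microdissection, mRNA was made into libraries, reads were aligned with HISAT2 and counted per feature with HTSeq, and the authors deposited 1 table of raw counts per library. The aligned genome is another assembly than the reference table used here, so no positions or sequences are given. Members were picked by name from the tables. They, the families, the pathway lists and the marker lists were chosen with earlier results of these data known.

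From the deposited counts, features were filtered with filterByExpr (minimum count 10), scaled with TMM and fitted with edgeR 4.0.16 (glmQLFit with robust, glmQLFTest) in R 4.3.3, with a mean for each of 18 groups and 17 residual degrees of freedom. The rows HTSeq adds for unplaced reads were left out: reads without a feature came to 8.56% to 14.0% and ambiguous reads to 15.0% to 19.1% of all reads in a table. Contrasts averaged layers on the log scale. SE is the log2 fold change over the square root of F. The script was tested on simulated data.

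Named members were the 12 with the highest mean CPM, up to 5 per direction and contrast with the largest fold change, and the most abundant of each family, plus symbols with 3 or more tested members. Alternatives were no filter, DESeq2 1.42.0 as test and as size factors, library size from LINC and AS features, the repeated file included, only the groups compared, the replicate number as a fixed block (edgeR) or a random block (limma voom 3.58.1), leaving out each library, and, added after seeing the data, layers pooled into 1 group. Libraries of different layers with the same replicate number deviated together in 15 of 15 pairs of layers at E28 (r = 0.167 to 0.265) and 6 of 6 at E37 (0.129 to 0.272). At E42 this held for 10 of 15 pairs (r = 0.13 to 0.232), and the pairs with the OSVZ had r = -0.117 to 0.062. The blocked fits paired libraries by this number at E28, E37 and E42, so their pairing is less certain at E42, above all for the OSVZ. With 2 or 3 libraries a group, the depth of a low transcript sets what could be called.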

Additional observations from a re-analysis of the deposited data

Results flagged for a closer look

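Of the tested members, 4 differed between E28 and E42 in their germinal against neuron-rich difference by the interaction test (edgeR, adjusted over all features), where 15% of all features and 4.85% of LINC and AS features passed. LINC-FGFR4-1 changed by 2.59 on the log2 scale, as the stage differences of opposite direction in the report show. LINC-JAG2-1 changed by 0.99, with the difference narrower at E42 and in the same direction at both stages.

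PTCHD2-AS-4 changed by 4.81 (adjusted p = 0.0451), with reads in 1 of 6 E28 germinal libraries and in 5 of 5 at E42, and no longer passed without any of 19 libraries or with layers pooled (2.91, adjusted p = 0.24). BMPR1B-AS-1 changed by -5.64 (adjusted p = 0.04), on 9 reads in E28 germinal libraries and none in E28 neuron-rich ones, and no longer passed without any of 17 libraries. For both PTCHD2-AS-4 and BMPR1B-AS-1, layers averaged at E28 had no read, so the sizes depend on a small added count and are not measured changes.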

How the results depend on the processing

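Counts of members past the threshold stayed within 1.5 times of the reported count except as follows. In brackets is the share of all features called in the same fit. With a random replicate block (limma voom) they were 32 between layers at E42 (41.2%) and 7 for the change of the layer difference (22.8%). In that fit they were 6 for the ISVZ and OSVZ over time (23.4%), 3 from E28 to E37 (15.3%) and 14 in the MZ (36.9%). OSVZ against ISVZ had 4 at E28 (13.8%) and 3 at E42 (3.78%) there. With only the groups compared they were 6 for the ISVZ and OSVZ (32.9%) and 3 from E28 to E37 (18.2%). They were also 6 from E37 to E42 (21.7%) and 1 for OSVZ against ISVZ at E28 (14.5%). The ISVZ and OSVZ over time had 4 with no filter (9.95%) and 5 with DESeq2 (25.3%). From E37 to E42 there was 1 with library size from LINC and AS features (11.2%). The cause was not tested.

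Leaving out each library gave 15 to 22 calls among any groups, 14 to 18 at E28, 7 to 17 at E42, 2 to 5 for the change, 1 to 4 for the ISVZ and OSVZ, 3 to 8 from E28 to E37, 1 to 5 from E37 to E42, 5 to 9 in the MZ, and 0 for OSVZ against ISVZ. At E42 the count was 9 without ISVZ replicate 1 or MZ replicate 1, 7 without IZ replicate 2 and 8 without MZ replicate 2.

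None of the fold changes of the 56 named calls reversed under any alternative, and in 1960 comparisons without 1 library 1733 stayed past the threshold and 227 did not. With the fixed replicate block, calls were lost at E42 for LINC-GLI3-4 (adjusted p = 0.0653) and WNT5B-AS-1 (0.122) and gained for LINC-FZD8-1 (0.0423), the change of the layer difference was lost for BMPR1B-AS-1 (0.0534) and gained for FGF1-AS-1 (0.0349) and FZD3-AS-1 (0.033), and the MZ difference was gained for LINC-FZD1-1 (0.0341) and LINC-FZD8-1 (0.0481). Including the repeated file lost 4 of the 56, no filter 6, library size from LINC and AS features 11, the random replicate block 10 and DESeq2 size factors 1. The fixed replicate block lost 6 of 43, only the groups compared 8 of 47, and layers pooled, added after seeing the data, 12 of 47. The DESeq2 test lost 5 of the 49 for which it gave an adjusted p. The rest of the 56 had none and so were not called by it either.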
